A study of Mus musculus with 6 samples.

Results

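Wild type LK cells are the lineage-negative, Kit-positive fraction of mouse bone marrow, and their baseline expression is described here from the 3 wild type arrays of a series of 6. The arrays were chosen by their label alone. Each one carries RNA of sorted LK cells from a pool of 3 wild type mice that were 3 months old and were littermates of NHD13 transgenic mice, whose 3 arrays form the rest of the series. The strain and sex of the mice are not given in the labels used here. A pool averages 3 animals, so the arrays show how pools differ and not how single mice differ, and p-values for differences between pools cannot be had from 1 array each. The transgenic arrays entered the shared normalization only, and no comparison of genotypes is made.

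Blood stem cells in the marrow give rise to multipotent progenitors, which then turn towards granulocytes and monocytes, towards red cells and platelets, or towards lymphocytes. The receptor Kit, which binds stem cell factor, is carried by most of these early cells and is lost as most lineages mature. A sort for Kit without lineage antigens therefore collects a mixture, dominated by committed myeloid and erythroid progenitors with a small share of stem cells. Transcription factors such as GATA and C/EBP proteins act in this mixture side by side, each in its own subset of cells.

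A probe was called detected when its deposited detection p-value, which ranks its signal against negative control probes, was under 0.05. Levels are normalized log2 intensities, on which a step of 1 is a 2-fold difference, and each array's lowest detected value lay between 5.39 and 5.46. Between 16196 and 16836 of 45281 probes were detected on an array, and 14244 probes (31.5%) on all 3. The 19057 genes with a name were each represented by 1 probe, and 8070 of them (42.3%) were detected on all 3 arrays, 812 on 2, 1319 on 1 and 8856 on none. Counts of detected list members below are to be read beside that 42.3%. The level of a probe also depends on how well it binds its target, so the ranks given here order probes by brightness and not transcripts by abundance. A gene whose probe lay below background has an upper bound on that probe and is not shown to be silent.

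Wild type pool 2 stood apart from the other pools. Across the 8070 detected genes, pools 1 and 3 correlated at 0.99, pools 1 and 2 at 0.98 and pools 2 and 3 at 0.97, which describes probes that share their binding properties. Pools 1 and 3 differed by more than 2-fold in 76 genes, against 316 genes between pools 1 and 2 and 399 between pools 2 and 3. All 3 arrays had a median of 43 beads per probe. Their median raw intensities were 159, 147 and 151 in pools 1, 2 and 3, the lowest being that of pool 2. Whether array, labelling or RNA quality set pool 2 apart was not tested. Results that rest on pool 2 are given below with the difference between pools 1 and 3 beside them.

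The 6 markers used to check the sort were all detected on every array. Kit measured 12.64, 12.99 and 12.82 in pools 1, 2 and 3 (mean 12.82 ± 0.18, SD, n = 3 pools). Mpo, the myeloperoxidase of primary granules, measured 15.45, 15.34 and 15.56 (15.45 ± 0.11). Elane, the neutrophil elastase gene, measured 15.15, 13.80 and 15.33 (14.76 ± 0.84). Those values put granulocyte-monocyte progenitor genes among the brightest of all, with pool 2 the lowest for Elane. Car1, a carbonic anhydrase of early erythroid cells, measured 14.40, 14.89 and 14.04 (14.44 ± 0.43). Gata2, a transcription factor of stem, mast and early erythroid cells, measured 11.52, 12.16 and 11.51 (11.73 ± 0.37), and both it and Car1 were highest in pool 2. Cd34, a surface sialomucin of early progenitors, was the dimmest of the 6, at 7.87, 7.63 and 7.82 (7.78 ± 0.13). Kit is read by 3 probes, of which 1 was below background on all arrays and 1 measured 7.82 on average, so even for the sorted receptor the level depends on the probe.

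**Figure D1:**
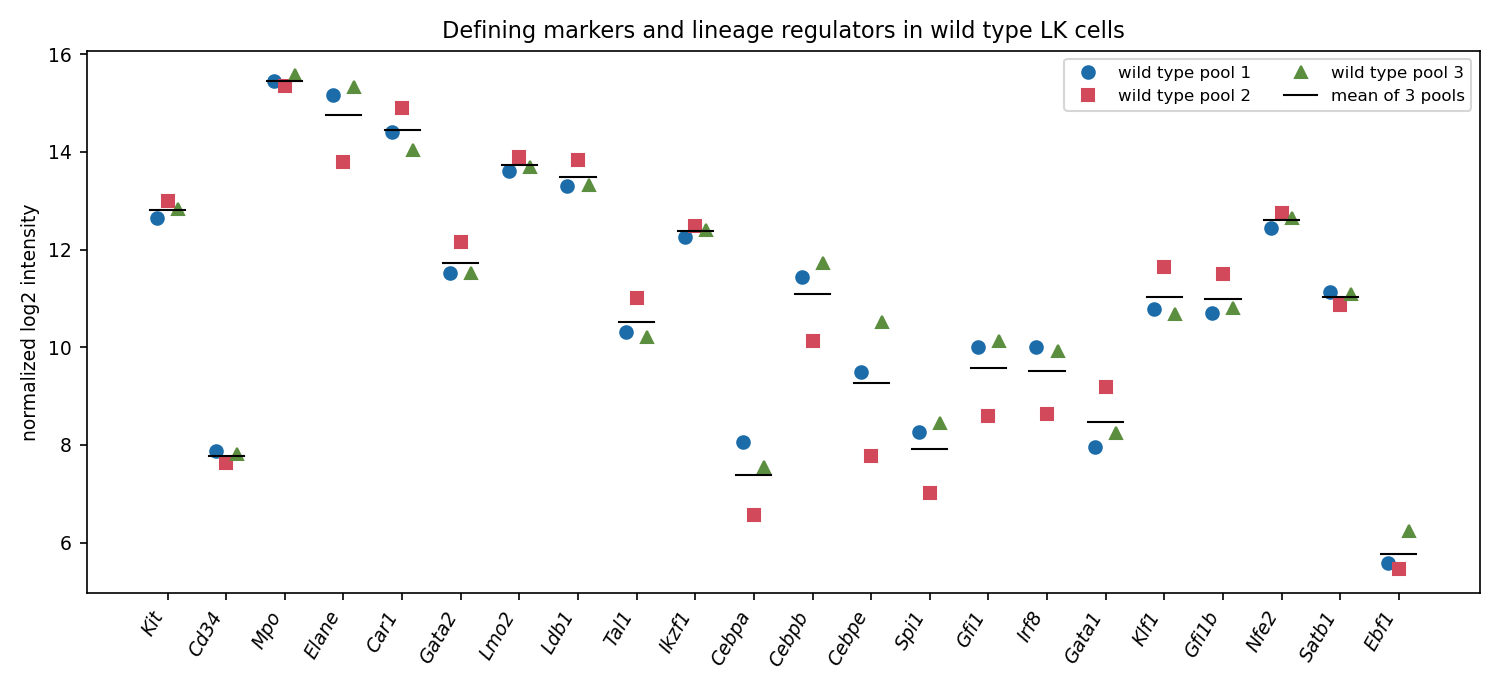
Normalized log2 intensity of the 6 sort markers and of 16 lineage regulators in the 3 wild type pools, with a point per pool and a line at the mean. Kit, Mpo, Lmo2 and Ikzf1 lie close together in all pools, while Elane, Cebpe, Spi1, Gfi1 and Irf8 are lowest and Gata1, Klf1 and Gfi1b highest in pool 2.

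The brightest genes were those of protein synthesis, of chromatin and of the primary granule. Rps2, a protein of the small ribosomal subunit, was the brightest at 15.72 on every array, a spread of 0 that quantile normalization gives to any probe that is the brightest on each array. Of the 20 brightest named genes, 10 encode ribosomal proteins (Rps2, Rps29, Rps9, Rps12, Rplp1, Rpl38, Rpl9, Rpl41, Rps19 and Rpl37) and 5 encode histone H2A (H2ac24, H2ac20, H2ac10, H2ac13 and H2ac7). The H2A genes are close copies of one another, and the ribosomal protein genes have many processed copies in the genome, so a probe named for 1 of them may bind several. The other 5 were Eef1a1, the translation elongation factor that brings tRNA to the ribosome (15.59), Gpx1, a glutathione peroxidase (15.55), Tuba1b, an alpha-tubulin (15.47), Mpo (15.45) and Ppia, cyclophilin A (15.38). Mpo was thus the only gene restricted to a blood lineage among the 20. Elane, Prtn3 and Ctsg, the granule proteases, lay lower, at 14.76, 14.58 and 14.40.

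Ribosomal protein genes took 37 places among the 100 brightest genes while making up 0.719% of detected genes. Of 71 on the array, 58 were detected, at a median percentile of 99.3 in brightness and a median SD between pools of 0.07. Histone genes took 7 of the 100 places, with 59 of 80 detected. Elongation and initiation factors took 6, with 49 of 63 detected. Values for the 20 brightest genes lay between 15.38 and 15.72, within 0.34 of each other, and the brightest raw signal was 52045 to 56350 on the 3 arrays.

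The 4 probes of Mpo were all detected on all arrays. The brightest probe differed by 0.23 between the highest and the lowest pool, and the next one measured 15.36, 14.98 and 15.38 in pools 1, 2 and 3. The dimmer pair measured 14.08, 13.12 and 14.31, and 13.93, 12.74 and 13.91. All 4 probes were lowest in pool 2, and the distance of pool 2 from the other pools was smallest on the 2 brightest probes. Whether brightness or the stretch each probe binds sets that distance was not tested.

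Stem cell transcription factors were detected in 19 of 23 cases, against 42.3% of all named genes. Lmo2 and Ldb1, bridging proteins that hold GATA and bHLH factors together on DNA, were the brightest, at 13.72 ± 0.15 and 13.48 ± 0.29 (SD, n = 3 pools). Ikzf1, which encodes Ikaros, measured 12.38 ± 0.11 and was detected by 5 of its 6 probes. Cbfb, the partner of RUNX proteins, measured 12.26 ± 0.20, and Runx1 itself 8.69 ± 0.14. Further members were Hhex (10.69 ± 0.16), Meis1, a partner of Hox proteins (10.57 ± 0.11), Lyl1 (10.55 ± 0.22), Myb (8.80 ± 0.10) and Myc (8.51 ± 0.07). Factors tied to the most primitive cells were near or under background: Mecom measured 5.80 ± 0.44, Prdm16 was detected on 2 arrays and Hlf on 1. Erg and Mycn were detected on none. Of the 19 detected members only Fli1 spanned more than 2-fold (5.26%), a share near the 6.57% of all detected genes. Fli1 measured 8.58, 7.32 and 7.66 in pools 1, 2 and 3, and pool 3 minus pool 1 was -0.91.

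Receptors that stem cells share with endothelium were detected in 9 of 13 cases and at low levels, with a median of 7.61. Eng, the TGF-beta co-receptor endoglin, measured 8.71, 9.68 and 9.07 in pools 1, 2 and 3. Esam measured 7.61 ± 0.15, Robo4 6.71 ± 0.22, Tek, the angiopoietin receptor, 6.64 ± 0.11, Emcn 6.23 ± 0.40 and Tie1 5.94 ± 0.23. Angpt1, a ligand of Tek, was detected on all arrays too (8.47 ± 0.38). Slamf1, the CD150 antigen of stem cells, was detected on 2 arrays, Kdr on 1, and Procr and Cdh5 on none. None of the 9 spanned more than 2-fold between pools, which few of all detected genes did (6.57%), so the count does not set them apart.

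Granulocyte and monocyte regulators were detected in 10 of 16 cases (62.5%, against 42.3% of all named genes). Of those 10, 7 spanned more than 2-fold between pools, against 6.57% of all detected genes. Spi1, which encodes PU.1, measured 8.27, 7.01 and 8.45 in pools 1, 2 and 3 (7.91 ± 0.79). Cebpa, the C/EBP factor needed to form granulocyte-monocyte progenitors, measured 8.06, 6.56 and 7.54 (7.39 ± 0.76). Cebpe, which drives the later granule program, measured 9.50, 7.77 and 10.52 (9.26 ± 1.39), and each of its 4 probes was lowest in pool 2 and highest in pool 3. These 3 factors thus shared a low value in pool 2 but not the order of pools 1 and 3. Gfi1, a transcriptional repressor active in neutrophil development, measured 10.01, 8.58 and 10.12. Irf8, the factor of monocyte and dendritic fate, measured 10.001, 8.63 and 9.92. Cebpb measured 11.44, 10.12 and 11.73 and was the brightest of the list. Pool 2 was lowest for 8 of the 10, as for 29.8% of all detected genes. Zeb2 (10.74 ± 0.20), Cebpd (9.47 ± 0.07) and Egr1 (9.10 ± 0.27) spanned less than 2-fold. Klf4 and Id2 were detected on 2 arrays, those of pools 1 and 3, Batf3 and Egr2 on 1, and Irf4 and Maf on none.

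Erythroid and megakaryocyte regulators were detected in 13 of 15 cases, and 10 of the 13 were highest in pool 2, as were 43.5% of all detected genes. Gata1, the master regulator of red cells and platelets, measured 7.95, 9.18 and 8.25 in pools 1, 2 and 3 (8.46 ± 0.64), and its dimmer probe was highest in pool 2 as well. Klf1, the erythroid Krüppel-like factor, measured 10.79, 11.64 and 10.67. Gfi1b, the erythroid counterpart of Gfi1, measured 10.70, 11.49 and 10.79. Tal1, a bHLH factor of the same complex as Lmo2, measured 10.31, 11.00 and 10.20. The corepressor gene Cbfa2t3 measured 9.98, 10.91 and 10.42. For these 5 genes pool 2 lay above both other pools, by between 0.49 and 0.93, while pools 1 and 3 lay within 0.44 of one another. Fli1, also of this list, was the 1 member lowest in pool 2, at 8.58, 7.32 and 7.66 in pools 1, 2 and 3. Gata1 and Fli1 were the 2 of 13 that spanned more than 2-fold (15.4%, beside 6.57% of all detected genes), and they placed pool 2 at opposite ends. Nfe2, a regulator of globin and platelet genes, measured 12.61 ± 0.16, and Bcl11a, a repressor of embryonic globin that also acts in B lineage cells, 10.73 ± 0.29. Sox6 measured 6.04 ± 0.21 and Nfia 6.88 ± 0.36. Ikzf2 was detected on 1 array and Mafk on none.

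Lymphoid regulators were detected in 8 of 18 cases, a share near the 42.3% of all named genes. The brightest were Ikzf1 (12.38 ± 0.11), Satb1, a chromatin organiser (11.03 ± 0.14), Bcl11a (10.73 ± 0.29) and Sox4 (10.16 ± 0.20). Dimmer were Tcf12 (6.96 ± 0.06), Tcf3, which encodes E2A (6.44 ± 0.47), Foxo1 (6.34 ± 0.43) and Ebf1, the first B lineage factor (5.76 ± 0.42). None of these 8 spanned more than 2-fold between pools, which few of all detected genes did (6.57%), so the count does not set them apart. Ebf1 lay close to background, at 5.58, 5.47 and 6.25 in pools 1, 2 and 3. Pou2af1, a B cell coactivator, was detected in pools 1 and 3 only, at 5.81 and 7.39. Pax5, Ikzf3, Lef1, Gata3, Bcl11b, Id3, Prdm1, Tbx21 and Eomes were detected on no array.

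Transcription factor families were represented unevenly. Of 6 GATA genes Gata2 and Gata1 were detected on all arrays, Gata6 on 1 and Gata3, Gata4 and Gata5 on none. All 5 C/EBP genes on the array were detected, Cebpg at 10.48 ± 0.25 being the fifth. Of 6 genes of the RUNX and CBFB list, Cbfb, Cbfa2t3, Runx1 and Cbfa2t2 were detected and Runx3 and Runx1t1 were not. Of 23 ETS genes 13 were detected, led by Elf1 (10.25 ± 0.03), Elk4 (9.50 ± 0.18) and Elf4 (9.32 ± 0.21). Ets1 had the largest spread among them, at 7.79, 7.05 and 9.18 in pools 1, 2 and 3. The ETS genes Spic, Etv1, Etv4 and Elk1 were detected on none.

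Hox genes, the homeobox regulators of body axis and blood cell growth, were detected in 5 of 38 cases, against 42.3% of all named genes. Of the 5, 4 belong to the A cluster. Hoxa7 measured 9.10, 8.96 and 9.12 in pools 1, 2 and 3 (9.06 ± 0.09). Hoxa5 measured 7.93, 7.62 and 8.37, Hoxa9, a leukaemia-linked member, 7.96, 7.58 and 7.29, and Hoxb4, the member known for stem cell expansion, 7.62, 7.03 and 7.97. Hoxa4 measured 5.96 ± 0.11, near background. None of the 5 spanned more than 2-fold, which few of all detected genes did (6.57%), so the count does not set this list apart. A further 5 were detected on 2 arrays (Hoxa13, Hoxb2, Hoxc8, Hoxd1 and Hoxc10), Hoxd11 and Hoxd13 on 1, and 26 on none, among them Hoxa10.

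**Figure D2:**
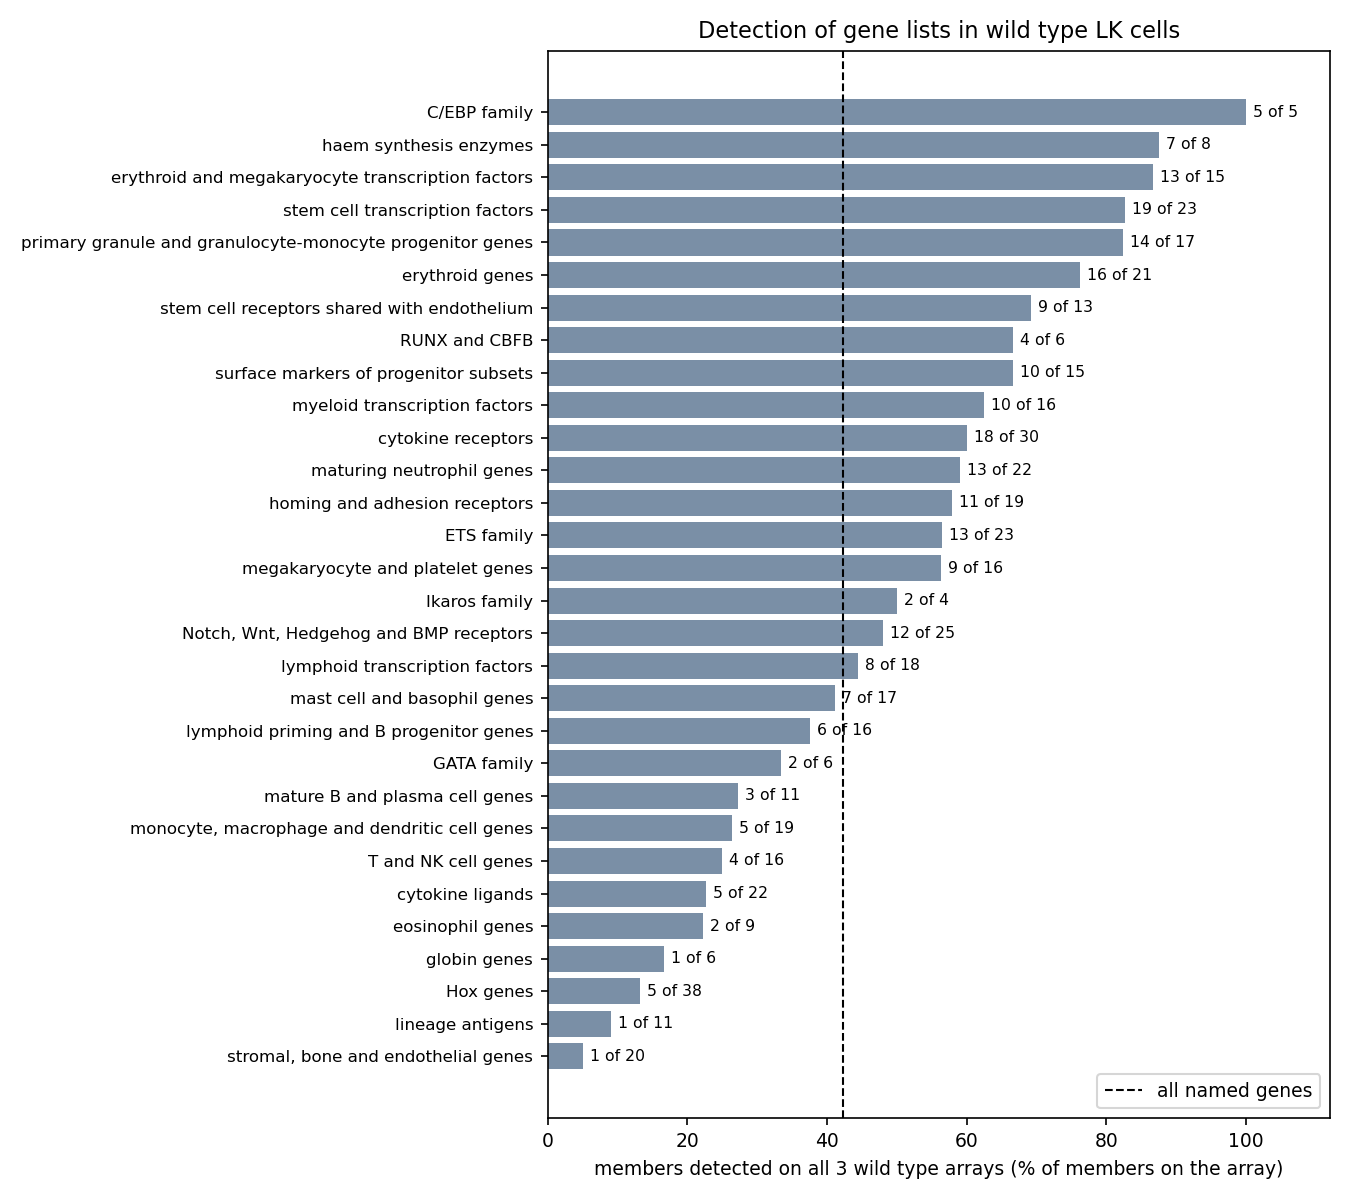
Share of the members of each gene list that were detected on all 3 wild type arrays, as a percentage of the members on the array, with the counts beside the bars. The dashed line marks the 42.3% of all named genes; the C/EBP family (5 of 5) and the erythroid and megakaryocyte regulators (13 of 15) lie far above it, and Hox genes (5 of 38) and stromal genes (1 of 20) far below.

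Cytokine receptors were detected in 18 of 30 cases. Receptors of red cell, granulocyte and macrophage growth factors ordered the pools in opposite ways. Epor, the erythropoietin receptor, measured 8.93, 9.86 and 8.71 in pools 1, 2 and 3. Csf3r, the receptor of G-CSF, measured 9.31, 7.81 and 8.92. Csf1r, the M-CSF receptor, measured 8.05, 7.39 and 8.69. Epor was thus highest in pool 2, where both granulocyte and macrophage receptors were lowest. Csf2ra, the GM-CSF receptor chain, measured 9.78, 8.74 and 10.14, Il6ra 9.36, 7.91 and 9.45, and Il3ra 8.38, 7.59 and 8.87. The shared chain Csf2rb measured 6.61, 5.54 and 6.23. In all, 13 of the 18 receptors were lowest in pool 2, as were 29.8% of all detected genes. Ifngr1, an interferon gamma receptor chain, measured 11.07 ± 0.09, Tgfbr1 10.04 ± 0.20 and Ifngr2 8.84 ± 0.19. Il7r, the receptor of lymphoid progenitors, lay near background at 5.75, 5.55 and 6.14. Flt3, the receptor of multipotent and lymphoid-primed progenitors, was below background on all arrays on both of its probes. Il5ra, Il2ra, Il2rb, Lifr, Il1r1, Il18r1, Il4ra, Ifnar1 and Csf2rb2 were detected on none.

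Cytokine genes themselves were detected less often, in 5 of 22 cases (22.7%, against 42.3% of all named genes). Tgfb1 measured 10.84 ± 0.13, Il15 9.09 ± 0.57 and Osm, oncostatin M, 9.04 ± 0.19 (SD, n = 3 pools), and Il4 and Il1b lay near background at 5.98 and 5.76. Genes of the factors that act on these cells, Kitl, Flt3l, Csf1, Csf2, Csf3, Il3, Il5, Il6, Il7 and Epo, were detected on no array.

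Homing and adhesion receptors were detected in 11 of 19 cases (57.9%, against 42.3% of all named genes). Cd47, which shields cells from phagocytosis, was the brightest and most even (12.76 ± 0.02). Selplg, the selectin ligand, measured 11.35 ± 0.47, Cd44, the hyaluronan receptor, 11.23 ± 0.10 and Cxcr4, the receptor that holds progenitors in the marrow, 10.30, 9.48 and 10.18 in pools 1, 2 and 3. Integrin genes were dimmer, with Itga5 at 8.26 ± 0.26, Itgb7 at 8.22 ± 0.61, Itgal at 7.71 ± 0.62, Itgb1 at 7.18 ± 0.32 and Itga4 at 6.83 ± 0.47. Itgb2, S1pr1, Ccr1, Jam3 and Cdh2 were detected on none. Cd44 was read by 9 probes, of which 3 were detected on all arrays, and the other levels are likewise those of the brightest probe.

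Receptors of developmental signals were detected in 12 of 25 cases, close to the 42.3% of all named genes, and none above 8.84. Ryk, a Wnt receptor, measured 8.63, 9.39 and 8.48 in pools 1, 2 and 3, and Fzd7, of the Frizzled family, 7.69, 8.54 and 7.12. Fzd7 was the member that spanned more than 2-fold, as did 6.57% of all detected genes. Smo, the transducer of Hedgehog signals, measured 8.30 ± 0.20 and its partner Ptch1 7.32 ± 0.35. Bmpr2 measured 8.33 ± 0.18 and Notch1 7.08 ± 0.25. Notch3, Bmpr1a, Fzd1 and Fzd2 were among 9 members detected on no array.

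Surface markers that divide LK cells into subsets were detected in 10 of 15 cases (66.7%, against 42.3% of all named genes). Fcgr3, the CD16 antigen used to gate granulocyte-monocyte progenitors, measured 10.38, 7.82 and 10.34 in pools 1, 2 and 3 (9.51 ± 1.46), and Fcgr2b, of the same antibody-binding family, 9.92, 8.39 and 9.70. Itga2b, the CD41 antigen of megakaryocyte progenitors, measured 8.94, 10.09 and 9.21, and both of its probes were highest in pool 2. On these probes the Fc receptors and CD41 placed pool 2 at opposite ends, but of 4 detected Fcgr2b probes 1 dim one was highest in pool 2 (5.97, 6.28 and 5.90). Tfrc, the transferrin receptor, measured 12.14 ± 0.19 and Cd9 9.88 ± 0.21. Thy1 lay at 6.42 ± 0.48, Cd33 was detected on 2 arrays and Cd48 on none.

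Lineage antigens were mostly below background. Of 11 lineage antigens Ly6c1, a surface antigen of monocytes, granulocytes and endothelium, was the one detected on all arrays, at 13.89, 12.14 and 13.88 in pools 1, 2 and 3. Cd3e and Ms4a1 were detected on 2 arrays, at up to 5.97 and 5.86. Cd3d, Cd3g, Cd4, Cd5, Cd8a, Itgam, Klrb1c and Ptprc were detected on none. Ptprc encodes CD45, known on nearly all nucleated blood cells, and its 4 probes measured between 4.58 and 4.79 on average, below every detected value. Its case limits what an undetected gene says about cells.

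Lists of T and NK cell, mature B cell and stromal genes, from cells that the sort should have removed, were detected in small part. For all named genes the share was 42.3%. Genes of maturing neutrophils, described below, were detected more often, in 13 of 22 cases. T and NK cell genes were detected in 4 of 16 cases, namely Cd8b1 (12.38 ± 0.12), Cd27 (11.71 ± 0.28), Prf1, perforin (9.76 ± 0.24), and Ly9 (7.81 ± 0.38), while Cd3d and Cd3g, chains of the T cell receptor complex, were at background. Cd8b1 was bright on 1 of its 3 probes, and the others averaged 4.84 and 5.40. Mature B cell genes were detected in 3 of 11 cases, with Cd37 at 8.58 ± 0.46, H2-Ob at 7.54 ± 0.25 and Cd180 at 6.63 ± 0.34, and Cd22, Cr2, Fcer2a and Sdc1 were detected on none. Stromal, bone and endothelial genes were detected in 1 of 20 cases, Igfbp4 at 12.35 ± 0.32. Of the collagen genes Col1a2 was detected on 2 arrays, near background at 5.52 and 5.62 in pools 1 and 2, and Col1a1 and Col3a1 on none, like Cxcl12, Cdh5 and Adipoq. Vcam1, also a gene of marrow macrophages, was below background in pool 2 and measured 6.98 in pool 1 and 8.93 in pool 3, and Lpl was likewise missing in pool 2 (7.64 and 7.58 in pools 1 and 3).

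Proliferation genes were bright and even. Of 26 cell cycle genes 23 were detected, with a median level of 11.37 and a median SD of 0.11. The median SD was 0.20 for all detected genes, but 0.15 for the 2018 brightest, since bright genes vary less. The replication helicase genes Mcm5 (13.66 ± 0.03), Mcm4 (13.33 ± 0.11), Mcm6 (12.23 ± 0.01), Mcm2 (11.80 ± 0.05) and Mcm3 (10.87 ± 0.04) hardly varied. Cdk4 measured 12.48 ± 0.02, Birc5, survivin, 12.31 ± 0.08, Top2a, topoisomerase II alpha, 12.02 ± 0.06 and Tyms, thymidylate synthase, 11.89 ± 0.03. Ccne1, cyclin E1, was the one member to span more than 2-fold (4.35%), a share near the 6.57% of all detected genes. Ccne1 measured 8.07, 9.06 and 7.93 in pools 1, 2 and 3. Bub1, Ccna2 and Ccnb2 were detected on none. Among CDK inhibitors Cdkn2c (9.48 ± 0.13) and Cdkn2d (7.46 ± 0.04) were even, and Cdkn1a, which encodes p21, measured 8.36, 7.13 and 8.44. Cdkn2b was detected on none and Cdkn2a on 1 array.

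Of 17 BCL2 family genes, which set cell survival, 10 were detected (58.8%, against 42.3% of all named genes). None of the 10 spanned more than 2-fold, which few of all detected genes did (6.57%). Bid (10.85 ± 0.22), a killer of the family, and Mcl1 (10.77 ± 0.10), a guardian of blood progenitors, were the brightest, followed by Bcl2 (9.51 ± 0.09), Bcl2l2 (9.22 ± 0.14) and Bad (9.22 ± 0.12). Bcl2l1, which encodes BCL-XL, lay near background at 5.76 ± 0.19. Bmf, Bok and Hrk were detected on none. Genes known from myeloid leukaemia and from DNA methylation were detected in 15 of 20 cases. Npm1 (14.51 ± 0.11), the splicing factor gene Srsf2 (14.13 ± 0.10) and Nras (12.56 ± 0.08) were the brightest, and Ezh2 (11.73 ± 0.20), Dnmt3b (11.33 ± 0.04), Kmt2a (11.32 ± 0.23) and Dnmt1 (11.16 ± 0.11) followed. Idh1 was the member that spanned more than 2-fold (6.67%, near the 6.57% of all detected genes), at 10.49, 9.41 and 10.48 in pools 1, 2 and 3. Dnmt3a, Sf3b1, Tet3 and Nf1 were detected on none.

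Stress and sex-linked genes were measured as signs of handling and of the make-up of the pools. Immediate-early genes, which cells switch on within minutes, were detected in 12 of 19 cases, and 11 of the 12 were highest in pool 3, as were 31.3% of all detected genes. Fos measured 9.33, 8.65 and 9.38 in pools 1, 2 and 3, Junb 9.22, 8.92 and 9.78, Dusp1 9.31, 9.47 and 10.02, and Fosb 5.62, 6.35 and 6.94. Their part in the differences between pools was not tested. Interferon response genes were detected in 11 of 18 cases at a median of 7.81. Bst2, at 9.27, 9.32 and 8.16, alone spanned more than 2-fold (9.09%), a share near the 6.57% of all detected genes. Xist, the RNA of the inactive X chromosome, measured 10.51, 9.46 and 10.17, and the Y-linked Eif2s3y measured 6.95, 7.95 and 6.47. Signal of both kinds was thus present in every pool. Pool 2 was lowest for Xist on all 4 of its probes and highest for Eif2s3y on the probe detected on all 3 arrays. The other Eif2s3y probe was detected on 1 array and was lowest in pool 2 (5.28, 5.24 and 5.55). Whether the sex of the mice moves with the other differences between pools was not tested.

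Most genes agreed closely between pools. The median SD over the 8070 detected genes was 0.20, and 90% of genes lay between 0.05 and 0.58. The median distance from the lowest to the highest pool was 0.38, or 1.30-fold. The spread was larger for dim genes, with a median SD of 0.26 in the 2018 dimmest genes and 0.15 in the 2018 brightest. More than 2-fold between pools was spanned by 530 genes (6.57%), more than 4-fold by 63 and more than 8-fold by 22. Without background correction the SD between pools had a median of 0.14, and the standard error over the beads of a probe, which is the error within an array, had a median of 0.07. Among the steadiest of those brightest genes were, beside Rps2, Elob, of an elongin complex (13.40 ± 0.01), Parp2, a DNA repair enzyme (11.49 ± 0.01), Csnk2a2, a casein kinase subunit (10.67 ± 0.01), and Wapl, which releases cohesin from chromatin (10.93 ± 0.01).

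**Figure D3:**
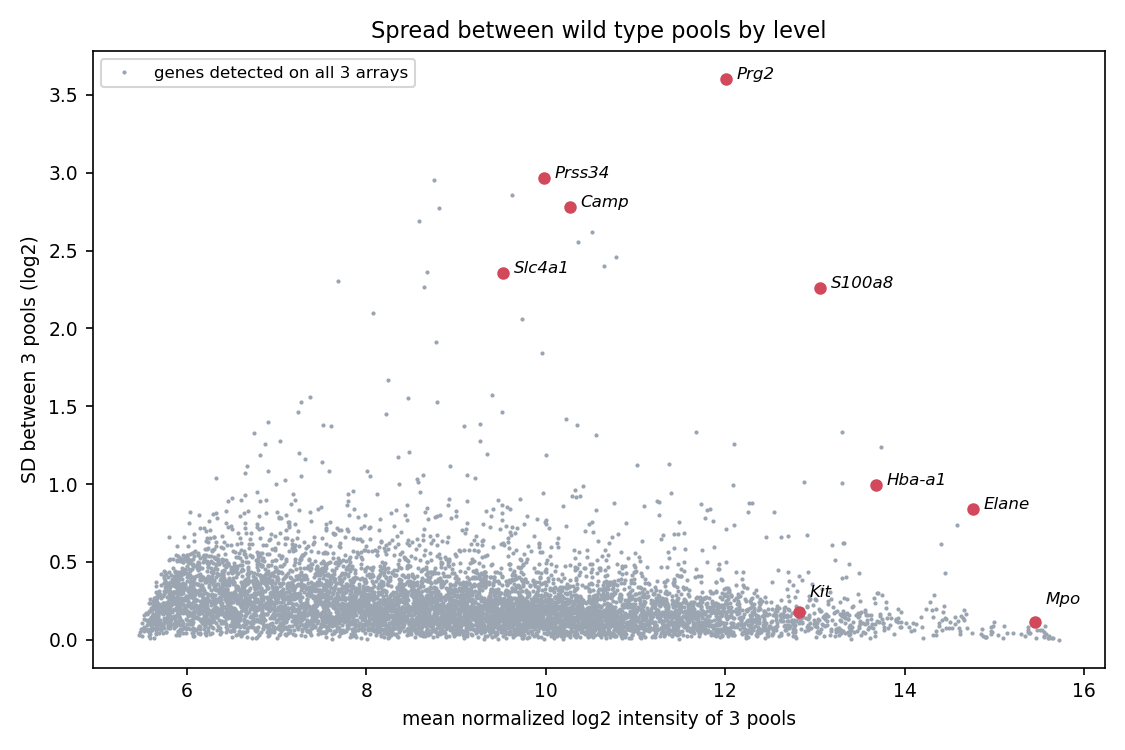
SD between the 3 wild type pools against the mean normalized log2 intensity, with a point for each of the 8070 genes detected on all 3 arrays and 9 genes named in red. Most genes lie below an SD of 0.58, and Prg2 (SD 3.60), Prss34 (2.97) and Camp (2.78) lie far above at middle to high levels.

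The genes that did differ between pools were mainly low in pool 2. Of the 530 genes, 352 (66.4%) were lowest in pool 2, against 29.8% of all detected genes, and 107 in pool 3, against 36.2% of all. Pool 3 was highest for 262 (49.4%). The commonest order, in 244 genes, was highest in pool 3 and lowest in pool 2. More than 2-fold below both other pools were 185 genes (2.29%) in pool 2, 2 in pool 1 and 7 in pool 3, and more than 2-fold above both were 34 (0.421%) in pool 2, 3 in pool 1 and 30 in pool 3. Fewer cells of a type and less RNA per cell cannot be told apart in such bulk samples. Without pool 2, 95 of 8378 genes detected on the other arrays differed by more than 2-fold. Of the 530 genes, 147 had several detected probes. In 91 of these all probes were highest in the same pool, and in 70 all probes spanned more than 2-fold. How often the probes of other genes share their highest pool was not counted.

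Eosinophil and mast cell granule genes led the differences. Prg2, the major basic protein of eosinophils, measured 12.85, 8.06 and 15.11 in pools 1, 2 and 3, the largest spread of all genes (SD 3.60). Prss34, a mast cell and basophil protease, measured 11.04, 6.63 and 12.28. The eosinophil ribonuclease genes Ear6 and Ear3 measured 8.67, 5.84 and 11.74, and 9.70, 6.73 and 12.45. These ribonuclease genes are close copies of one another, so their probes may share signal, and 2 further probes of Ear3 were below background. All 4 genes were lowest in pool 2 and highest in pool 3, and without pool 2 they still differed between pools 3 and 1, by 2.27 for Prg2, 1.24 for Prss34, 3.07 for Ear6 and 2.75 for Ear3. Of 9 eosinophil genes only Prg2 and Ear6 were detected on all arrays. Epx, the eosinophil peroxidase, was undetected in pool 2 and measured 6.23 and 9.53 in pools 1 and 3, and Prg3 was likewise undetected there (7.26 and 9.53). The eosinophil surface receptors Il5ra, Siglecf and Ccr3 were detected on none.

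Of 17 mast cell and basophil genes 7 were detected, a share near the 42.3% of all named genes, and all 7 were lowest in pool 2, against 29.8% of all detected genes. Fcer1a, a chain of the IgE receptor, measured 9.002, 5.68 and 9.56 in pools 1, 2 and 3, and its second probe gave the same order. Mcpt8, a basophil protease, measured 6.90, 5.46 and 7.67, and Hdc, the enzyme that makes histamine, 12.44, 10.96 and 12.87. Cpa3, the mast cell carboxypeptidase, measured 10.93, 10.28 and 10.92. The tryptase and chymase genes of mature mast cells, Tpsb2, Tpsab1, Cma1 and Mcpt4, were below background on all arrays.

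Genes of maturing neutrophils, secondary granule genes among them, formed the next group. Camp, the cathelicidin, measured 10.51, 7.37 and 12.92 in pools 1, 2 and 3, Ltf, lactoferrin, 10.54, 7.88 and 13.12, and Ngp, a cathelicidin relative, 10.41, 7.77 and 12.88. Lcn2, an iron-scavenging lipocalin, measured 10.94, 8.12 and 12.90. S100a8 and S100a9, the calprotectin pair, measured 13.60, 10.57 and 14.99, and 11.15, 8.16 and 13.05. Each of these 6 genes was lowest in pool 2 and highest in pool 3, and pool 3 exceeded pool 1 by between 1.39 and 2.58. Chil3 and Chil4, chitinase-like proteins, measured 8.80, 5.80 and 11.17, and 8.95, 5.97 and 11.51, and are near copies whose probes may share signal. Of 22 neutrophil genes 13 were detected (59.1%, against 42.3% of all named genes). Lowest in pool 2 were 11 of the 13, against 29.8% of all detected genes. Ltb4r1, a leukotriene receptor, shared that order (10.26, 8.70 and 11.03), while Mmp9 and Retnlg were lowest in pool 2 but highest in pool 1 (6.29, 5.47 and 5.82, and 8.62, 6.40 and 6.92). Cxcr2, a chemokine receptor of mature neutrophils, and Il1b were the 2 that pool 2 did not have lowest, at 6.02 ± 0.31 and 5.76 ± 0.11. Stfa1, Stfa2, Stfa3, Mmp8, Mmp25 and Itgam were detected on none.

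**Figure D4:**
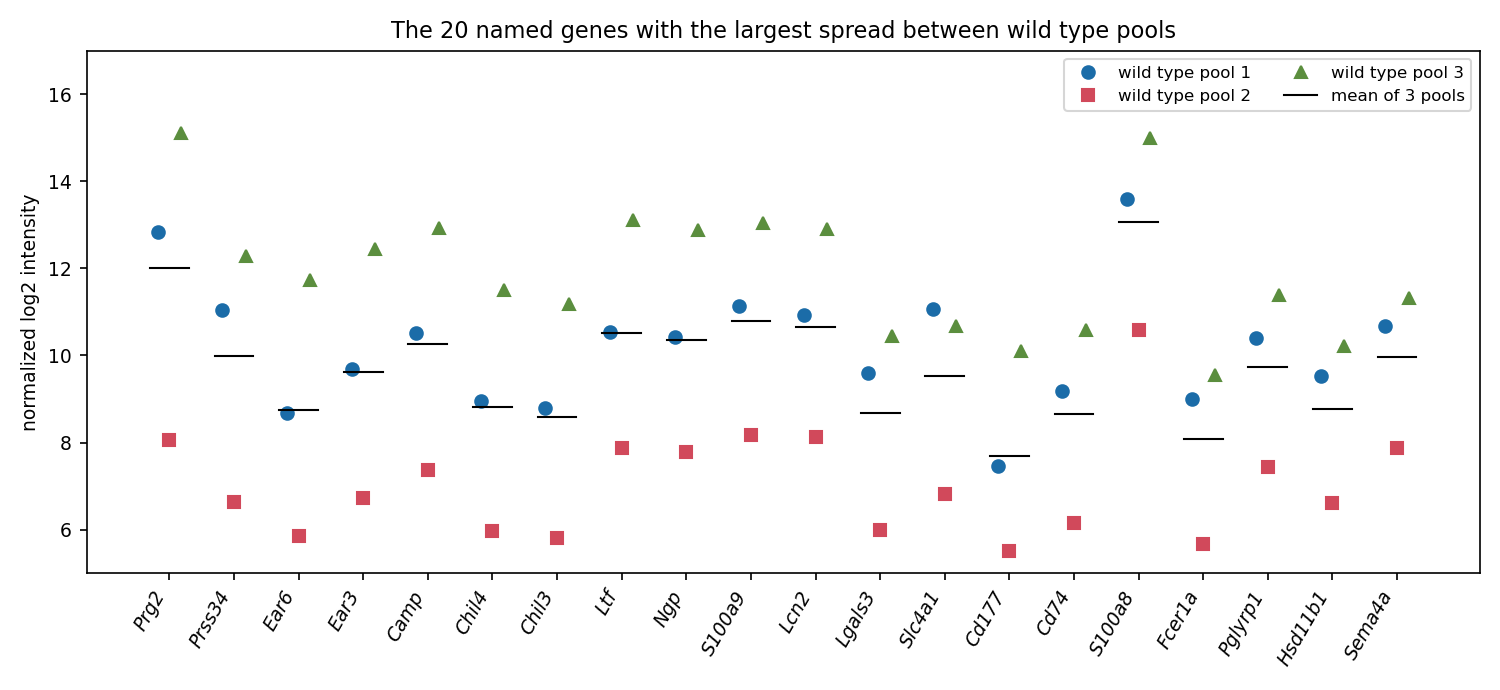
Normalized log2 intensity in each of the 3 wild type pools for the 20 named genes of largest SD between pools, ordered by SD, with a line at the mean. Pool 2 is the lowest for all 20 and pool 3 the highest for 19; Slc4a1 is highest in pool 1.

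Genes of the primary granule and of granulocyte-monocyte progenitors, the primary granule list for short, were lower in pool 2 as well. Of 17 genes 14 were detected, and all 14 were lowest in pool 2, against 29.8% of all detected genes, with 9 of them more than 2-fold below both other pools. Prtn3, proteinase 3, measured 14.92, 13.74 and 15.09 in pools 1, 2 and 3, and Ctsg, cathepsin G, 14.68, 13.70 and 14.82. Ms4a3, a membrane protein of granulocyte-monocyte progenitors, measured 13.05, 10.67 and 12.56, and Hp, haptoglobin, 12.37, 10.14 and 12.52. Between the other pools the 14 genes went both ways, with 7 highest in pool 1 and 7 in pool 3, and pool 3 minus pool 1 ran from -0.51 for Srgn, a granule proteoglycan, to 0.98 for Lyz2, a lysozyme. Fcnb, ficolin B, was undetected in pool 2 and measured 7.49 and 10.07 in pools 1 and 3. Monocyte, macrophage and dendritic cell genes were detected in 5 of 19 cases (26.3%, against 42.3% of all named genes). All 5 were lowest in pool 2 and highest in pool 3, against 29.8% and 31.3% of all detected genes. Cd74, the invariant chain of antigen presentation, measured 9.19, 6.16 and 10.59, and H2-Ab1, a class II chain, 9.53, 9.16 and 10.69. Of 3 detected H2-Ab1 probes, the dimmest was lowest in pool 1 instead (8.23, 8.30 and 9.47). F13a1, a coagulation factor chain of monocytes, measured 12.68, 11.26 and 12.86. Lgals3, a galectin of macrophages, and Pglyrp1, a neutrophil peptidoglycan-binding protein, measured 9.59, 6.0005 and 10.45, and 10.39, 7.43 and 11.39. Hsd11b1, which activates glucocorticoid, and Sema4a, a semaphorin, completed the 20 genes of largest spread, at 9.52, 6.60 and 10.21, and 10.68, 7.87 and 11.32, with Cd177, a neutrophil surface protein, at 7.46, 5.50 and 10.09.

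B progenitor genes were highest in pool 3, in 5 of 6 detected cases, against 31.3% of all detected genes. Vpreb1, a surrogate light chain of pre-B cells, measured 6.26, 5.94 and 8.51 in pools 1, 2 and 3. Igll1, its partner chain, was undetected in pool 2 and measured 6.31 and 9.66 in pools 1 and 3, and Vpreb3 was detected in pool 3 only, at 7.60. Dntt, the terminal transferase of lymphoid progenitors, varied less, at 7.17, 6.93 and 7.82, and so did Cd79b at 9.09, 8.20 and 9.42. Of 16 members of the list 6 were detected on all arrays, and all 6 were lowest in pool 2, against 29.8% of all detected genes. Rag2, Blnk, Ccr9 and Lax1 were detected on none.

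Of 21 erythroid genes 16 were detected, with 12 of them highest in pool 2, where 43.5% of all detected genes were highest. Aqp1, a water channel of red cell precursors, measured 13.03, 13.93 and 13.15 in pools 1, 2 and 3 and was highest in pool 2 on all 3 probes. Ermap measured 10.45, 11.16 and 10.42, Kel, a blood group protein, 10.37, 11.05 and 10.64, Car2 12.68, 13.30 and 12.61, and Rhag 9.52, 10.09 and 9.81. The other 4 detected genes were Hba-a1, Slc4a1, Trim10 and Sptb, of which the first 3 were lowest in pool 2. Hba-a1, an alpha-globin gene, measured 14.34, 12.53 and 14.16, Slc4a1, the band 3 anion exchanger, 11.07, 6.81 and 10.68, and Alas2, the erythroid enzyme that starts haem synthesis, was undetected in pool 2 and measured 7.82 and 7.13 in pools 1 and 3. Trim10 differed less, at 9.20, 8.75 and 9.25, and Sptb, a spectrin chain, measured 10.08, 10.27 and 10.33. The mean over the 16 genes lay at 0.02 for pool 2 relative to the 3 pools. The globin genes Hbb-y, Hbb-bh1, Hba-x and Hbb-b2 were at background, and Hba-a2, whose transcript nearly equals that of Hba-a1, is not analysed here. Of 8 haem synthesis genes 7 were detected on all arrays. Highest in pool 2 were 5 of the 7, as were 43.5% of all detected genes. They were Alad (12.61, 13.10 and 12.63), Urod (13.30, 13.55 and 13.21), Ppox (9.86, 10.19 and 10.01), Cpox (6.53, 7.01 and 6.06) and Uros, whose pools hardly differed (9.31 ± 0.01). Alas1, the enzyme used outside red cells, measured 13.34, 12.14 and 13.25 and was lowest in pool 2, as was Fech (7.43, 7.18 and 7.24).

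Megakaryocyte and platelet genes were higher in pool 2. Of 16 genes 9 were detected, and 8 of the 9 were highest in pool 2, against 43.5% of all detected genes. More than 2-fold above both other pools were 5 of them, against 0.421% of all detected genes. Pf4, platelet factor 4, measured 8.67, 9.68 and 8.10 in pools 1, 2 and 3. Vwf, von Willebrand factor, measured 7.79, 9.33 and 8.17, and Treml1, a platelet surface protein, 8.08, 9.26 and 7.65. Gp5, Gp9 and Gp1bb, chains of the von Willebrand factor receptor, measured 8.80, 9.88 and 8.08, then 7.97, 8.67 and 7.94, then 5.84, 7.38 and 6.09. Selp, P-selectin, was the exception and lowest in pool 2 (8.34, 7.34 and 7.79). Ppbp was detected in pool 2 only, at 5.72, and Gp6, Clec1b, Thbs1 and Itgb3 on no array. Among all named genes the 10 that lay farthest above both other pools in pool 2, a selection made after the values were seen, were Phlda2, Tgfbr3, Parm1, Ehd3, Ptpn14, Cavin2, Gp1bb, F2rl2, Rab4a and Mmp14. Tgfbr3, the TGF-beta co-receptor betaglycan, measured 7.96, 9.45 and 7.95, F2rl2, a thrombin receptor of platelets, 5.75, 7.25 and 5.97, and the distances of the 10 genes ran from 1.25 to 1.49.

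**Figure D5:**
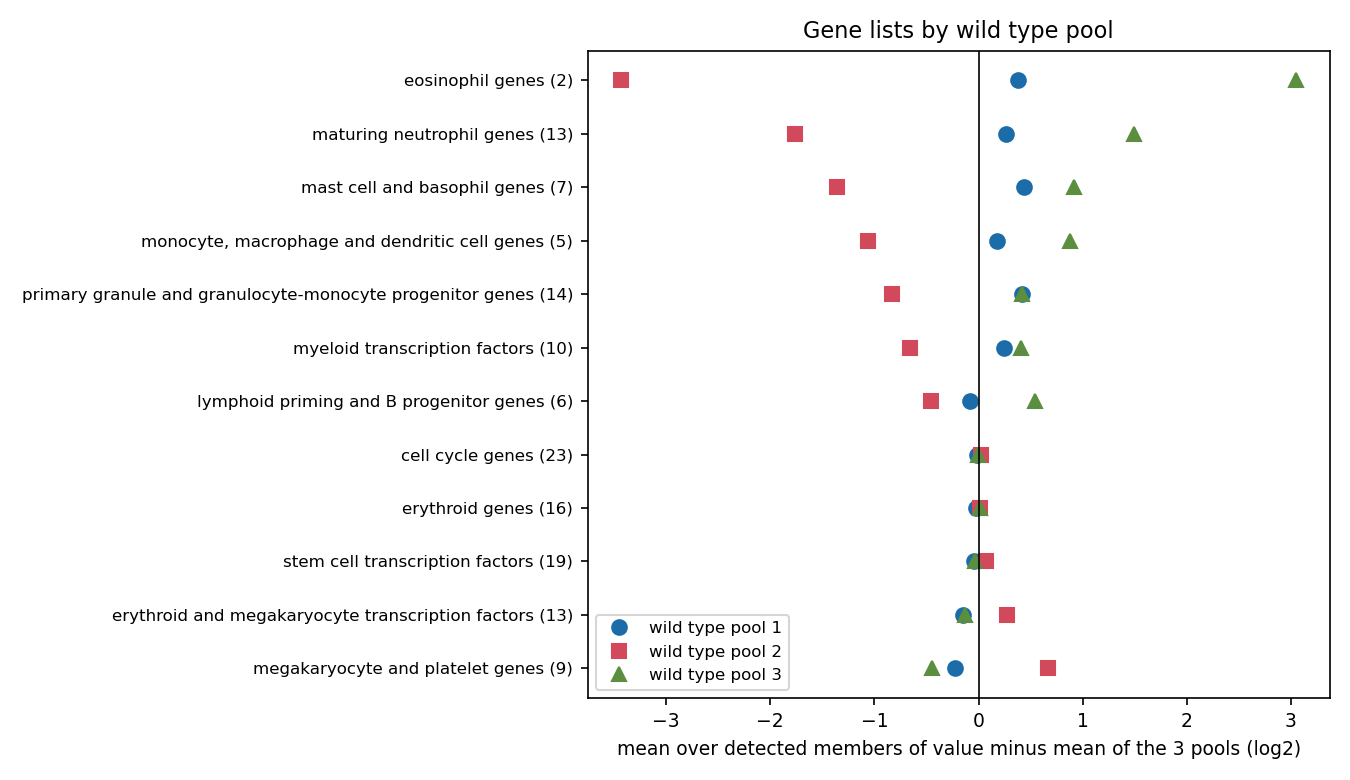
Mean over the detected members of 12 gene lists of each wild type pool's value minus the mean of the 3 pools (log2), with the number of members in brackets and a point per pool. Pool 2 lies lowest for eosinophil (-3.43), neutrophil (-1.76), mast cell (-1.36), monocyte (-1.06) and primary granule (-0.83) genes and highest for megakaryocyte genes (0.66), while cell cycle genes lie together near 0.

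The promoters of genes that ordered the pools in opposite ways are shown as the 200 bases before the start site, from RefSeq on GRCm38.p6, to let the stretches be compared letter by letter. Elane (chr10:79886112-79886311, + strand), Camp (chr9:109849457-109849656, - strand), Ear6 (chr14:51853568-51853767, + strand) and Prss34 (chr17:25298194-25298393, + strand) were lowest in pool 2, while Pf4 (chr5:90772235-90772434, + strand) and Epor (chr9:21963577-21963776, - strand) were highest there. Capitals mark matches, on either strand, to TTNNGNAA for C/EBP factors, AGATAA for GATA factors and GAGGAA for PU.1, and 0 bases of these windows were shared by matches of different motifs.
Elane: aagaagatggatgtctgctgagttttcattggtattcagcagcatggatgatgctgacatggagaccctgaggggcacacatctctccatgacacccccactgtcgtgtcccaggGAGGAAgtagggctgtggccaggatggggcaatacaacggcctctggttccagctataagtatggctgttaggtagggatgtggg
Camp: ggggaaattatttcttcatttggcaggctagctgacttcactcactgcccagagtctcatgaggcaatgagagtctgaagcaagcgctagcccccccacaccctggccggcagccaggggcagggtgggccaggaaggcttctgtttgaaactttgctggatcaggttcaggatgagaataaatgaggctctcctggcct
Ear6: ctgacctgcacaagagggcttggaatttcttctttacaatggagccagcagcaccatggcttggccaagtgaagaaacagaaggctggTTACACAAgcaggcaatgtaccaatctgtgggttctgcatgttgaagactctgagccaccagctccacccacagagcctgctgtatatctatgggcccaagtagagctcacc
Prss34: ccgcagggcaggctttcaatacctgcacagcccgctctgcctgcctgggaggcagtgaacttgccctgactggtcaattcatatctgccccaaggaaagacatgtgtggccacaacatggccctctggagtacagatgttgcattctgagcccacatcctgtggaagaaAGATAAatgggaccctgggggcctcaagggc
Pf4: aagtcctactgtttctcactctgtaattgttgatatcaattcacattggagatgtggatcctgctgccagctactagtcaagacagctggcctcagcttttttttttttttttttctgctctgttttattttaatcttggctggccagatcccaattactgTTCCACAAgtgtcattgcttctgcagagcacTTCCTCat
Epor: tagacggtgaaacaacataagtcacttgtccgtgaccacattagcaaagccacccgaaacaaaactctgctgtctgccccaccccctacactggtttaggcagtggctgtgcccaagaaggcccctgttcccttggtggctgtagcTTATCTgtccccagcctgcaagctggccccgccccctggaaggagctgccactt

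Elane holds 1 match to the PU.1 letters, Ear6 1 to those of C/EBP, Prss34 and Epor 1 each to those of GATA, and Pf4 1 to C/EBP and 1 to PU.1, while Camp holds none. Among all 32851 promoters of the RefSeq table, 30.0% held a C/EBP match in this window, 7.80% a GATA match and 19.0% a PU.1 match. Among 6649 genes detected on all wild type arrays the shares were 22.0%, 4.17% and 17.7%. Of the lists, 13 genes of the primary granule list had a promoter there, and 4 held a C/EBP match, 0 a GATA match and 5 a PU.1 match. For 12 neutrophil genes these counts were 7, 3 and 6. For 7 mast cell and basophil genes they were 1, 4 and 1. For 12 erythroid genes they were 4, 3 and 2, and for 8 megakaryocyte genes 3, 1 and 5. The GATA letters were thus held by as many neutrophil as erythroid promoters, and the PU.1 letters are also bound by other ETS factors. A match is a string of letters and not a site of binding.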

How the data were processed

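RNA of sorted LK cells was measured on 6 bead arrays, of which the 3 wild type arrays are described. Per the labels' protocols, Trizol RNA of marrow pooled from 3 mice was amplified from a T7-oligo(dT) primer and labelled with biotin. Per the file headers, the deposited table gives for each probe an intensity that is neither normalized nor background-subtracted, the count of beads, the standard error over beads (a signal in the same unit as the intensity, as deposited by the authors) and a detection p-value. The authors also deposited a processed intensity for each probe, whose making is not given in the sources used here. Wild type arrays are named Control there, with the number of the title.

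Intensities of all 6 arrays were corrected for background by normexp, for which the detection p-values served to infer the negative controls, raised by an offset of 16, quantile normalized and put on the log2 scale (limma 3.58.1, R 4.3.3). In all, 34885 probes had 1 gene symbol in the platform annotation, 18 had several and 10378 none. RefSeq's genes of GRCm38.p6 matched 34807 of them and changed 0 symbols. A gene was represented by its brightest probe detected on all 3 arrays, otherwise by its probe detected on most arrays. No test was made, since 1 group of 3 pools has no contrast; values are means ± SD over pools, and the number of arrays limits their precision. The counting was checked on simulated data.

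The 38 gene lists hold 579 genes, 532 of them on the array, and some share members. Lists and members were chosen with earlier results of these data known. Genes named were the 20 brightest, the 20 of largest SD, the 5 of smallest SD among the 2018 brightest, and from each list up to 4 of highest level, 3 of largest SD and 3 detected on no array, leaving out predicted symbols. Further members were named after their values were seen. Alternatives were neqc on the wild type arrays alone, no background correction, median scaling, the authors' values, an offset of 50, other detection rules, the median over probes, and leaving out each array.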

Additional observations from a re-analysis of the deposited data

How the results depend on the processing

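The 8070 detected genes became 7567 at a detection p-value under 0.01 and 8882 with detection on 2 of 3 arrays, and lay between 8243 and 8418 without 1 array. The count of genes spanning more than 2-fold, 530, was 192 without background correction and 335 with an offset of 50, both subsets of the 530, and it ranged from 95 (without wild type replicate 2) to 399 without 1 array, with 317 without wild type replicate 3. Median scaling gave 685, of which 453 were among the 530, and the authors' values 773. The median SD stayed within 1.5 times 0.20 under all 11 alternatives. Pool 2's position relative to the mean of the pools kept its direction for primary granule, neutrophil, monocyte, mast cell, lymphoid, megakaryocyte and erythroid-megakaryocyte regulator lists under all alternatives that keep pool 2. For the erythroid list, at 0.02, it was 0.044 without background correction, 0.10 with median scaling and -0.075 with detection on 2 of 3 arrays, which adds Alas2; for cell cycle genes, at 0.02, it was 0.10 with median scaling and 0.053 with the median over probes. The median level over the 196 genes named by rule was 9.68, and ranged from 9.39 to 10.06 without 1 array, the highest being without wild type replicate 2. Without background correction the median of all detected genes shifted by 0.34, and with an offset of 50 by 0.10. Of 418 counts of detected list members, 402 stayed within 1.5 times. Without pool 2 its position has no value. Signal over background limits the dim genes. No paired analysis was possible because only 1 group is described and no result comes from a test.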
